A study of Mus musculus with 54 samples.

Results

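Arntl, Clock and Npas2 encode the activators of the circadian clock, and their RNA was followed by sequencing in 54 mouse livers. The members were the rows with these symbols, 3 of the 18079 genes in the table. The 3 genotypes compared were KO mice lacking BMAL1, the protein that Arntl encodes; Liver-RE mice, which lack BMAL1 except for its return in the liver; and WT mice. Both of the altered genotypes are named from a BMAL1-stop-FL allele, so the Liver-RE mice share the BMAL1 loss of the KO mice outside the liver; the driver that restores the gene and the part of the gene that the allele changes are not given in the labels used here. All mice were female C57BL/6J animals of 8 to 12 weeks, kept in 12 h of light and 12 h of darkness with free access to chow. Livers were taken every 4 h at ZT0, 4, 8, 12, 16 and 20 from 3 mice per genotype and time; lights came on at ZT0, and ZT is given in hours.

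BMAL1 binds DNA only with a partner, and CLOCK and NPAS2 are alternative partners of the same bHLH-PAS protein family. The pairs bind E-box sequences and switch on, among others, the Per and Cry genes, whose proteins repress the pair, and Nr1d1 and Nr1d2, which encode the REV-ERB repressors. REV-ERB and the ROR activators compete for elements called ROREs in Arntl, Clock and Npas2 and so set the daily course of the activators' own RNA. In liver the clock times metabolism, among it lipid, glucose and bile acid handling.

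The genes lie on GRCm38.p6, the assembly named mm10, at chr7:113178471-113314126 (Arntl, plus strand), chr5:76209868-76305603 (Clock, minus strand) and chr1:39193702-39363240 (Npas2, plus strand). RefSeq start sites gave 6 promoter windows of 300 bases for them (250 before and 50 from the start), 2 for Arntl, 3 for Clock and 1 for Npas2. They were searched on both strands for the RORE consensus, its core AGGTCA, the variant core AGGTTA, the E-box CACGTG and the D-box TTANGTAA. The core AGGTCA is a part of the RORE consensus, so the same bases can count under both. The sites found are shown because the RORE is the element through which REV-ERB and ROR act; capitals mark the RORE-like element in Arntl and the core, read on the gene's strand, in Clock.

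Arntl, site at chr7:113207491-113207520, plus strand: gattggtcggAAAGTAGGTTAgtggtgcga

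Arntl, site at chr7:113207527-113207556, plus strand: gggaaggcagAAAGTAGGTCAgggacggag

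Clock, site at chr5:76303604-76303633, minus strand: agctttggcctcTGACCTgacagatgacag

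The capitals of the Arntl sites differ at 1 of 11 bases and their first bases lie 36 bases apart, at positions -10 and 27 from the start site at 113207511. Both sites are in exon 1, in the untranslated part, of Arntl transcripts in GENCODE vM21. The second Arntl site meets the RORE consensus, which 0.384% of all 32851 promoter windows hold. The first holds AGGTTA, found in 8.49% of windows. The core in the Clock site starts at position -119 from 1 of the 3 start sites, in an intron of 5 longer transcripts. It is AGGTCA on the opposite strand, which 16.3% of windows hold on either strand. The Npas2 window held none of the 5 motifs, and no member's window held CACGTG or TTANGTAA, found in 7.15% and 2.32% of all windows. A match is a description of letters, and no match says nothing about sequence outside these windows.

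Judged by what a single read is worth among low values, depth was 30.5 ± 3.54 M reads (mega reads) in KO, 30.5 ± 4.42 M reads in Liver-RE and 32.3 ± 3.68 M reads in WT (SD, n = 18 each). All 10 hepatocyte markers were detected in each genotype; their summed level was 25413 to 48815 FPKM in KO, 36443 to 73456 FPKM in Liver-RE and 43389 to 63820 FPKM in WT. Albumin (Alb) carried most of that difference, with a mean of 16700 FPKM in KO, 33046 FPKM in Liver-RE and 36852 FPKM in WT. Serpina1a, Tat and Hnf4a also had lower means in KO (367, 256 and 88.7 FPKM) than in WT (384, 456 and 107 FPKM). Apoa1, Apoa2, Cps1, Cyp2e1 and Asgr1 had higher means in KO than in WT, and Ttr was nearly equal (3708 against 3703 FPKM). Cholangiocyte markers, 5 of 5 in the table, summed to 14.7 to 76.1 FPKM in KO, 8.78 to 21.7 FPKM in Liver-RE and 12.1 to 39.9 FPKM in WT. Spp1 carried most of that sum, with a mean of 39.5 FPKM in KO, 13.4 FPKM in Liver-RE and 17.7 FPKM in WT. Sox9 also had a higher mean in KO than in WT (1.69 against 0.652 FPKM). Krt19, Krt7 and Epcam did not (0.311, 0.130 and 0.491 FPKM in KO against 0.360, 0.156 and 0.506 FPKM in WT). All 8 Kupffer cell and macrophage markers had lower means in KO and in Liver-RE than in WT. Their sum was 134 to 307 FPKM in KO, 131 to 330 FPKM in Liver-RE and 219 to 322 FPKM in WT. The part of these marker differences in the results was not tested, and in whole liver fewer cells of a type cannot be told apart from less RNA per cell. A gene-wide Arntl value does not check the KO label, but Nr1d1, an E-box target of BMAL1, was at 0.131 to 0.740 FPKM in all 18 KO livers, against 0.458 to 13.8 FPKM in Liver-RE and 0.160 to 17.7 FPKM in WT.

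Of the libraries, 5 are named here as standing apart from their groups in other clock genes; they were picked by eye. In WT replicate 2 at ZT8, Dbp was at 1.31 FPKM, against 61.9 and 66.0 FPKM in the other WT livers of that time. In Liver-RE replicate 1 at ZT20, Nr1d1 was at 10.8 FPKM, against 1.12 and 1.64 FPKM in the others. In Liver-RE replicate 3 at ZT0, Dbp was at 15.4 FPKM, against 1.61 and 5.83 FPKM. In Liver-RE replicate 3 at ZT8, Nr1d1 was at 9.15 FPKM, against 1.81 and 1.35 FPKM in the others. In Liver-RE replicate 3 at ZT12, Dbp was at 15.9 FPKM, against 4.19 and 2.02 FPKM. These libraries were kept, and calls on the members that changed when the first 2, the first 3 or all 5 were left out together are given beside the results. The genes shown for them are Dbp and Nr1d1, and Dbp was the gene most opposite to Arntl over the group means (r = -0.957). Leaving these libraries out can thus narrow the spread of Arntl by the choice itself. The smaller adjusted p of such fits are therefore not independent support.

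Arntl RNA was steady in KO livers and swung widely in the other genotypes. The 18 KO livers lay between 6.26 and 8.74 FPKM, with a median of 7.88 FPKM. KO group means ran from 7.03 ± 1.14 FPKM at ZT0 to 8.69 ± 0.0508 FPKM at ZT16 (SD, n = 3), a ratio of 1.24. The KO livers thus sat between the daily high and the daily low of WT at every time.

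In Liver-RE livers, Arntl was 10.6, 7.75 and 1.91 FPKM at ZT0, 2.11, 1.34 and 1.5 FPKM at ZT4, and 0.894, 1.94 and 1.37 FPKM at ZT8. It was 5.95, 7.49 and 2.74 FPKM at ZT12, 7.64, 10.1 and 10.7 FPKM at ZT16, and 4.68, 8.47 and 10.6 FPKM at ZT20. The low phase of Liver-RE fell in the light, at ZT4 and ZT8, and the high phase in the dark. The widest spread was at ZT0, where the lowest of the 3 values belongs to a library that stood apart.

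In WT livers, Arntl was 12.0, 11.6 and 11.3 FPKM at ZT0, 4.64, 7.54 and 7.52 FPKM at ZT4, and 0.414, 10.6 and 0.563 FPKM at ZT8. It was 0.464, 0.495 and 0.350 FPKM at ZT12, 4.75, 4.37 and 5.55 FPKM at ZT16, and 9.06, 11.0 and 12.1 FPKM at ZT20. WT was low from ZT8 to ZT12 apart from the ZT8 library that stood apart, and high around lights on. The highest group mean was 26.6 times the lowest in WT and 6.74 times in Liver-RE.

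**Figure D1:**
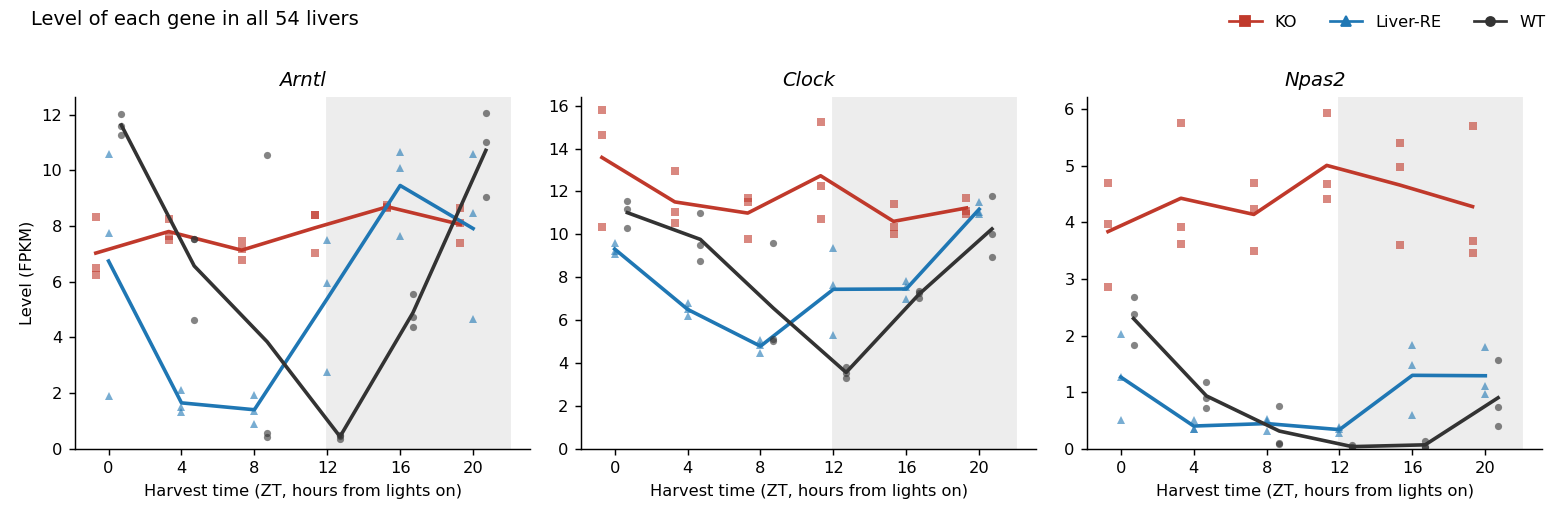
Level of Arntl, Clock and Npas2 in FPKM (vertical axes, linear, one scale per gene) against harvest time in hours from lights on, for KO (red squares), Liver-RE (blue triangles) and WT (black circles). Points are single livers, shifted sideways by genotype, and lines join the means of 3. Grey starts with the dark period at ZT12 and stops shortly after the last harvest, before the dark period ends. Arntl in KO stays between 6.26 and 8.74 FPKM, and Npas2 in KO lies above all WT and Liver-RE livers of the same hour.

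CLOCK is the usual partner of BMAL1, and Clock RNA moved less than Arntl. The 18 KO livers lay between 9.77 and 15.8 FPKM, with a median of 11.2 FPKM, and the ratio of the highest to the lowest KO group mean was 1.28. The highest KO values were 15.8 and 14.6 FPKM at ZT0 and 15.3 FPKM at ZT12.

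In Liver-RE livers, Clock was 9.61, 9.24 and 9.09 FPKM at ZT0, 6.80, 6.51 and 6.21 FPKM at ZT4, and 4.46, 4.82 and 5.07 FPKM at ZT8. It was 7.64, 9.38 and 5.30 FPKM at ZT12, 7.54, 6.98 and 7.84 FPKM at ZT16, and 11.0, 11.0 and 11.5 FPKM at ZT20. Each of the Liver-RE groups other than ZT12 was tight, and the lowest point came at ZT8.

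In WT livers, Clock was 11.2, 11.5 and 10.3 FPKM at ZT0, 8.78, 11.0 and 9.51 FPKM at ZT4, and 5.11, 9.58 and 5.0 FPKM at ZT8. It was 3.31, 3.83 and 3.54 FPKM at ZT12, 7.24, 7.35 and 7.03 FPKM at ZT16, and 11.8, 8.96 and 10.01 FPKM at ZT20. The WT low point was at ZT12, 4 h later than in Liver-RE, and the same ZT8 library was again the high one. The highest group mean was 2.34 times the lowest in Liver-RE and 3.09 times in WT.

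NPAS2 replaces CLOCK in part of the pairs, and Npas2 was the member whose daily mean differed most between KO and WT on the log2 scale. The 18 KO livers lay between 2.85 and 5.93 FPKM, with a median of 4.32 FPKM. All of them were above the highest liver of any other group, 2.69 FPKM in WT at ZT0. The ratio of the highest to the lowest KO group mean was 1.30.

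In Liver-RE livers, Npas2 was 2.03, 1.26 and 0.504 FPKM at ZT0, 0.511, 0.346 and 0.349 FPKM at ZT4, and 0.309, 0.531 and 0.497 FPKM at ZT8. It was 0.352, 0.284 and 0.380 FPKM at ZT12, 0.592, 1.47 and 1.83 FPKM at ZT16, and 1.10, 0.972 and 1.8 FPKM at ZT20. The values fell into a low phase from ZT4 to ZT12 and a higher one from ZT16 to ZT0, with overlap between them.

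In WT livers, Npas2 was 1.84, 2.38 and 2.69 FPKM at ZT0, 0.727, 0.899 and 1.18 FPKM at ZT4, and 0.0791, 0.756 and 0.104 FPKM at ZT8. It was 0.0604, 0.0404 and 0.0135 FPKM at ZT12, 0.0299, 0.142 and 0.0378 FPKM at ZT16, and 0.404, 1.56 and 0.737 FPKM at ZT20. Npas2 was high at lights on and at most 0.142 FPKM at ZT12 and ZT16. At the estimated depth and a transcript of 4236 bases these trough values stand for about 2 to 9 reads per library at ZT12 and 4 to 19 at ZT16, so their ratios to other groups are imprecise. The highest group mean was 3.84 times the lowest in Liver-RE and 60.4 times in WT.

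Ranked over all 18 groups, Arntl was highest in WT at ZT0 (11.6 ± 0.376 FPKM) and lowest in WT at ZT12 (0.436 ± 0.0764 FPKM; SD, n = 3), so that both extremes were WT groups. Clock was highest in KO at ZT0 (13.6 ± 2.87 FPKM) and lowest in WT at ZT12 (3.56 ± 0.258 FPKM). For Npas2 the 6 KO groups held the 6 highest places, and WT at ZT12 the lowest (0.0381 ± 0.0235 FPKM). Most neighbours in these orders overlapped: the 3 values of a group lay wholly above those of the next in 2 of 17 neighbouring pairs for Arntl, 3 of 17 for Clock and 2 of 17 for Npas2. One of the Npas2 breaks separated the lowest KO group, ZT0, from the highest WT group, ZT0. How often such breaks occur in other genes was not counted, so these counts only describe the members.

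The first question was which members cycle in each genotype. A 24 h cosine was fitted to log2(FPKM + 1) in limma, with adjustment over the 11759 genes tested and a threshold of 0.05. None of the 3 members passed in KO, where 0% of all genes passed; 1105 genes had an unadjusted p under 0.05 there. The fitted peak-to-trough fold in KO was 1.15 for Arntl (adjusted p = 0.964), 1.08 for Clock (0.944) and 1.18 for Npas2 (0.844). The 95% interval of the swing reached up to 0.87 for Arntl, 0.40 for Clock and 0.59 for Npas2 on the log2 scale. These intervals take the error of the swing as normal. Their lower ends were -0.47, -0.18 and -0.12, although a swing cannot be negative, so the upper ends are only rough.

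All 3 members passed in Liver-RE, where 3.82% of genes did. The peak-to-trough fold was 4.64 for Arntl (adjusted p = 0.000141), 1.85 for Clock (0.000526) and 1.86 for Npas2 (0.00645). Arntl thus had the widest fitted swing of the 3 in Liver-RE, as it did in WT.

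All 3 also passed in WT, where 23.5% of genes did. The fold was 8.11 for Arntl (adjusted p = 2.79e-08), 2.42 for Clock (4.40e-08) and 2.98 for Npas2 (4.40e-08). Folds of the fitted cosine are on the log2(FPKM + 1) scale, which shrinks those of low genes, Npas2 most. The order of the members in WT depends on this scale. In FPKM the highest WT group mean was 60.4 times the lowest for Npas2 and 26.6 times for Arntl. Without WT replicate 2 at ZT8 the WT fold of Arntl was 11.2, and without Liver-RE replicate 1 at ZT20 its Liver-RE fold was 5.35.

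The rhythm of each member differed between KO and WT, a difference called for 7.78% of genes. The size of the difference, as the swing of the difference between the fitted curves, was 3.07 log2 for Arntl (adjusted p = 0.000142), 1.18 for Clock (0.000759) and 1.81 for Npas2 (2.77e-05). The median over all genes was 0.31. The 3 calls held under each of the other settings run.

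Liver-RE and WT differed in rhythm for all 3 members as well, a call made for 3.51% of genes. The difference was 3.09 log2 for Arntl (adjusted p = 0.000143), 0.95 for Clock (0.0115) and 1.46 for Npas2 (0.000861), against a median of 0.27 over all genes. These calls also held under each of the other settings run. The comparisons share the WT livers.

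Between Liver-RE and KO the rhythm difference did not pass, a call made for only 0.238% of genes. It was 2.05 log2 for Arntl (adjusted p = 0.0795), 0.87 for Clock (0.0832) and 0.99 for Npas2 (0.119). Leaving out single libraries, Arntl passed without WT replicate 2 at ZT8 (adjusted p = 0.00429), Clock without that library (0.0305) or Liver-RE replicate 2 at ZT12 (0.0369), and Npas2 in none of the 54 fits. Without the first 2 libraries that stood apart, Arntl was at 2.26 (adjusted p = 0.000496), Clock at 0.85 (0.0497) and Npas2 at 1.04 (0.105). Without the first 3, Arntl was at 2.34 (adjusted p = 4.5e-05), Clock at 0.85 (0.0511) and Npas2 at 1.15 (0.0424). Without all 5, Arntl was at 2.27 (adjusted p = 0.000138), Clock at 0.81 (0.105) and Npas2 at 1.2 (0.0519).

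The peaks came earlier in Liver-RE. Arntl peaked at ZT18.1 ± 0.589 h in Liver-RE, against ZT22.8 ± 0.432 h in WT (SE from the fit). Clock peaked at ZT20.4 ± 0.634 h in Liver-RE, against ZT23.6 ± 0.440 h in WT. Npas2 peaked at ZT20.1 ± 0.779 h in Liver-RE, against ZT0.453 ± 0.441 h in WT.

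The peak time in Liver-RE minus that in WT was -4.69 ± 0.730 h for Arntl, -3.23 ± 0.772 h for Clock and -4.38 ± 0.895 h for Npas2. Peak times are a description, and the shift in peak time was not tested by itself. The rhythm difference was tested on the cosine and sine together, so a change of swing alone can also pass it. Leaving out each library in turn gave -5.20 to -4.26 h for Arntl, -3.51 to -2.77 h for Clock and -4.97 to -3.88 h for Npas2. Without the first 3 libraries that stood apart the shift was -3.64 h for Arntl, -2.81 h for Clock and -3.71 h for Npas2, and without all 5 it was -3.86 h for Arntl, -3.01 h for Clock and -3.79 h for Npas2.

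The peak times of the members were also set against each other within a genotype. In Liver-RE, Arntl minus Clock was -2.28 ± 0.865 h and Npas2 minus Clock -0.30 ± 1.00 h. In WT, Arntl minus Clock was -0.82 ± 0.617 h and Npas2 minus Clock 0.86 ± 0.623 h. These SE ignore that the genes come from the same libraries, and the differences between genes were not tested.

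**Figure D2:**
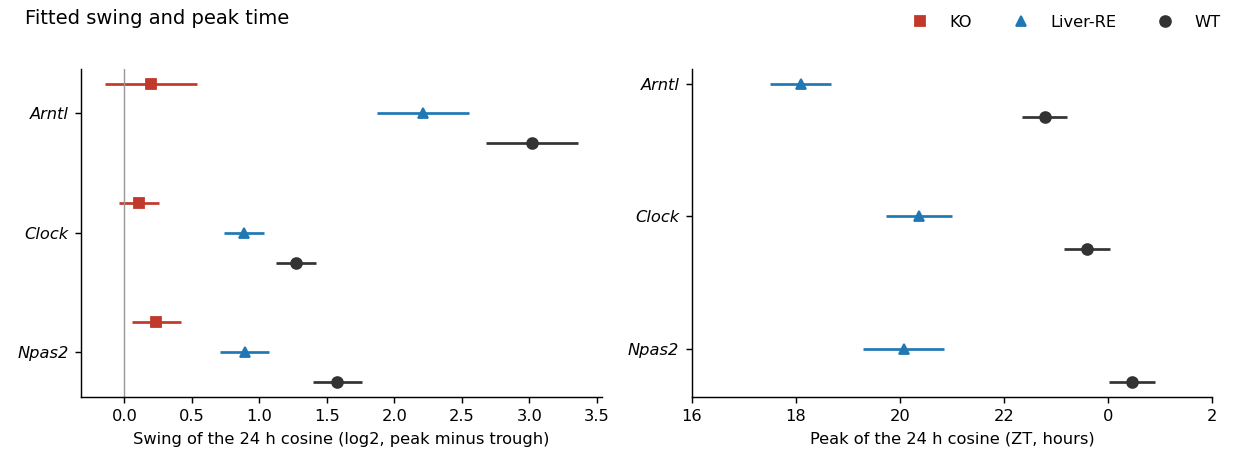
Left, swing of the fitted 24 h cosine in log2 units (peak minus trough) for each gene in KO (red squares), Liver-RE (blue triangles) and WT (black circles); right, its peak time in hours from lights on for Liver-RE and WT, with KO left out because no rhythm passed the test there. Bars are SE from the fit to 54 livers, and each Liver-RE peak lies left of, that is earlier than, the WT peak of the same gene.

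Pairs of times 12 h apart gave the swing without a cosine. At ZT12 against ZT0, the log2 fold change in WT was -3.14 ± 0.416 for Arntl (SE; adjusted p = 1.36e-06), -1.40 ± 0.152 for Clock (3.19e-08) and -1.66 ± 0.217 for Npas2 (1.22e-06), and 5.62% of genes were called lower. In KO none of the 3 members passed in any of the 3 such pairs, in which 0.0170%, 0.00850% and 0% of genes were called; Npas2 at ZT12 against ZT0, with 0.32 ± 0.217 (adjusted p = 0.503), was the largest. In Liver-RE, Arntl rose at ZT16 against ZT4 by 1.98 ± 0.416 (adjusted p = 0.0119; 0.451% of genes higher) and at ZT20 against ZT8 by 1.85 ± 0.416 (0.0208; 0.451% of genes higher). Clock rose in Liver-RE at ZT20 against ZT8 by 1.07 ± 0.152 (adjusted p = 5.55e-05), the third smallest p-value of all genes. The Arntl call at ZT16 against ZT4 was lost without Liver-RE replicate 2 at ZT4 or replicate 2 or 3 at ZT16, and that at ZT20 against ZT8 without replicate 1 at ZT8 or replicate 2 or 3 at ZT20.

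At ZT12 against ZT0 no member passed in Liver-RE, where 2.30% of genes did. Npas2, at -0.70 (adjusted p = 0.0687), was at -0.97 and passed without Liver-RE replicate 3 at ZT0 (0.0126), without the first 3 libraries that stood apart (0.00842) and, at -0.99, without all 5 (0.0287). Arntl, at -0.14, was at -0.74 without the first 3 (adjusted p = 0.0419) and at -0.39 without all 5 (0.389). For Npas2 at ZT16 against ZT4 in Liver-RE, 0.67 in each of these fits, the adjusted p was 0.0724 with all libraries, 0.0438 without the first 3 and 0.0494 without all 5; it also passed, at 0.92, without Liver-RE replicate 1 at ZT16 (0.0122).

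In WT, Arntl was higher at ZT20 than at ZT8 by 1.98 ± 0.416 (adjusted p = 0.0128; 0.459% of genes higher), and by 2.97 without WT replicate 2 at ZT8. Clock was higher there by 0.62 ± 0.152 (adjusted p = 0.0274), and Npas2 was lower at ZT16 than at ZT4 by -0.85 ± 0.217 (0.0131; 3.09% of genes lower). These WT calls were lost for Arntl without replicate 1 or 3 at ZT8, for Clock without replicate 1 or 3 at ZT8 or at ZT20, and for Npas2 without replicate 3 at ZT4 or at ZT16. Npas2 in WT at ZT20 against ZT8 was at 0.53 (adjusted p = 0.196) and, without WT replicate 2 at ZT8, at 0.75 (0.0483); with further libraries left out as well, its adjusted p was 0.0499 (first 2), 0.0309 (first 3) and 0.0362 (all 5). Clock in WT at ZT16 against ZT4, -0.39, passed without all 5 (adjusted p = 0.0359).

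Averaged over the day, all 3 members were higher in KO than in WT. Npas2 averaged 4.39 ± 0.901 FPKM in KO and 0.760 ± 0.853 FPKM in WT (SD, n = 18 each), a difference of 1.74 ± 0.091 on the log2 scale (SE; adjusted p = 1.68e-21). By p-value it ranked 14 among all genes tested. Clock averaged 11.8 ± 1.78 FPKM in KO and 8.06 ± 2.87 FPKM in WT, a log2 difference of 0.57 ± 0.073 (adjusted p = 2.09e-08). Arntl averaged 7.77 ± 0.803 FPKM in KO and 6.35 ± 4.54 FPKM in WT, a log2 difference of 0.67 ± 0.17 (adjusted p = 0.00185). At this contrast 16.5% of all genes were called higher in KO. On the linear scale the Arntl means lay closer together than the SD of the WT livers.

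Between Liver-RE and WT no member passed in mean level, while 7.06% of genes did. The log2 difference was -0.05 ± 0.17 for Arntl (SE; adjusted p = 0.883), -0.01 ± 0.073 for Clock (0.958) and 0.14 ± 0.091 for Npas2 (0.333). The sign for Arntl and Clock turned under other settings. For Npas2 a pseudocount of 0.1 in place of 1 gave 0.67 (adjusted p = 0.0121), which passes.

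All 3 members were lower in Liver-RE than in KO, with 26.7% of genes called lower. Npas2 averaged 0.841 ± 0.595 FPKM in Liver-RE and 4.39 ± 0.901 FPKM in KO (SD, n = 18 each), a log2 difference of -1.60 ± 0.091 (SE; adjusted p = 6.42e-20). The log2 difference was -0.57 ± 0.073 for Clock (adjusted p = 1.66e-08) and -0.72 ± 0.17 for Arntl (0.000876).

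Hour by hour, Npas2 was higher in KO than in WT at ZT4, 8, 12, 16 and 20, while the shares of genes called higher at those times were 1.62%, 1.86%, 8.07%, 6.23% and 4.67%. Its largest log2 difference was 2.53 ± 0.217 at ZT12 (SE; adjusted p = 3.01e-11), from group means of 5.01 FPKM in KO and 0.0381 FPKM in WT. At ZT0 the KO livers also lay above all WT livers. The log2 difference, 0.54 ± 0.217, did not pass (adjusted p = 0.177, with 1.27% of genes higher). Such separations, here and below, only describe 3 livers against 3. The share of all genes that separate in this way was not counted, and the shares given count calls. Clock was higher in KO at ZT8, 12 and 16, with 1.58 ± 0.152 at ZT12 (adjusted p = 4.56e-10) as the largest. The call at ZT16, 0.50 ± 0.152 (adjusted p = 0.0303), was lost when any of the 6 livers in it was left out, and with the 20 highest genes left out (0.42, adjusted p = 0.0562).

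Arntl was higher in KO than in WT at ZT12, 2.63 ± 0.416 log2 (SE; adjusted p = 1.25e-05), with means of 7.93 FPKM in KO and 0.436 FPKM in WT. At ZT8 it was higher by 1.46 ± 0.416 (adjusted p = 0.0275), and by 2.45 without the WT library that stood apart. The ZT8 call was lost when any of the other 5 livers of that time was left out. At ZT0 all KO livers were below all WT livers, with means of 7.03 FPKM in KO and 11.6 FPKM in WT, and at ZT20 likewise, with 8.06 FPKM in KO and 10.7 FPKM in WT. Neither passed: the log2 differences were -0.66 ± 0.416 (adjusted p = 0.432; 1.73% of genes lower) and -0.37 ± 0.416 (0.656; 1.90% of genes lower). At ZT16 all KO livers were above all WT livers, with means of 8.69 FPKM in KO and 4.89 FPKM in WT and a log2 difference of 0.72 that did not pass (adjusted p = 0.296; 6.23% of genes higher). Without the first 3 libraries that stood apart, differences of the same size had adjusted p of 0.0354 at ZT0 and 0.00823 at ZT16, and without all 5, of 0.00791 at ZT0 and 0.00131 at ZT16.

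Between Liver-RE and WT with all libraries, the calls fell around dusk and after. At ZT12, Arntl was higher in Liver-RE by 2.07 ± 0.416 log2 (SE; adjusted p = 0.00380) and Clock by 0.86 ± 0.152 (0.00124), with 0.833% of genes called higher. Npas2 was higher at ZT16 by 1.06 ± 0.217 (adjusted p = 0.00630; 0.612% of genes higher), a call that was lost without Liver-RE replicate 2 or replicate 3 at ZT16. At ZT12 all Liver-RE livers were above all WT livers for Npas2 too, with a log2 difference of 0.37 that did not pass; with a pseudocount of 0.1 it was 1.67 (adjusted p = 0.0243). At ZT16 the same held for Arntl, with 0.82 (adjusted p = 0.269), which passed without the first 3 libraries that stood apart (0.0124) and without all 5 (0.00214). At ZT4 all Liver-RE livers were below all WT livers for each of the 3 genes, with log2 differences of -1.5 ± 0.416 for Arntl (adjusted p = 0.159), -0.52 ± 0.152 for Clock (0.197) and -0.46 ± 0.217 for Npas2 (0.809). None of these passed, at an hour when 0.0765% of genes were called lower. That share counts calls, not genes whose livers separate in this way. The difference of Arntl at ZT4, of the same size, had an adjusted p of 0.00325 without WT replicate 2 at ZT8, 0.00151 without the first 2 libraries that stood apart, 4.12e-06 without the first 3 and 5.85e-08 without all 5; that of Clock passed without all 5 (adjusted p = 0.0237). At ZT0, 8 and 20 no member passed either, while 0.408%, 0.0680% and 0.638% of genes did. At ZT0 all Liver-RE livers were also below all WT livers for Arntl and Clock, while Npas2 overlapped. The log2 differences there were -0.92 for Arntl (adjusted p = 0.367), -0.22 for Clock (0.644) and -0.59 for Npas2 (0.232).

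Between Liver-RE and KO, Npas2 was lower at all 6 times, while the shares of genes called lower from ZT0 to ZT20 were 2.35%, 1.62%, 3.93%, 3.93%, 7.50% and 2.05%. The log2 difference was largest at ZT12, -2.16 ± 0.217 (SE; adjusted p = 3.32e-09), and smallest at ZT0, -1.13 ± 0.217 (0.00103). Clock was lower in Liver-RE at ZT4, 8 and 12, by -1.05 ± 0.152 at ZT8 (adjusted p = 6.77e-06) at most; the ZT12 call was lost without Liver-RE replicate 3 of that time. At ZT0 and ZT16 all Liver-RE livers were also below all KO livers for Clock, by -0.48 (adjusted p = 0.0593) and -0.46 (0.0508). With the replicate number as a block the adjusted p was 0.0435 at ZT0 and 0.0340 at ZT16, and without the first 2 libraries that stood apart 0.0229 at ZT0 and 0.0244 at ZT16; without the first 3 or all 5 both also passed. Arntl was lower in Liver-RE at ZT4, -1.74 ± 0.416 (adjusted p = 0.010), and at ZT8, -1.78 ± 0.416 (0.00414). The ZT4 call of Arntl was lost without Liver-RE replicate 2 or 3 or KO replicate 1 of that time. At ZT16 and ZT20 Arntl overlapped between the genotypes, with means of 9.46 and 7.91 FPKM in Liver-RE and 8.69 and 8.06 FPKM in KO.

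**Figure D3:**
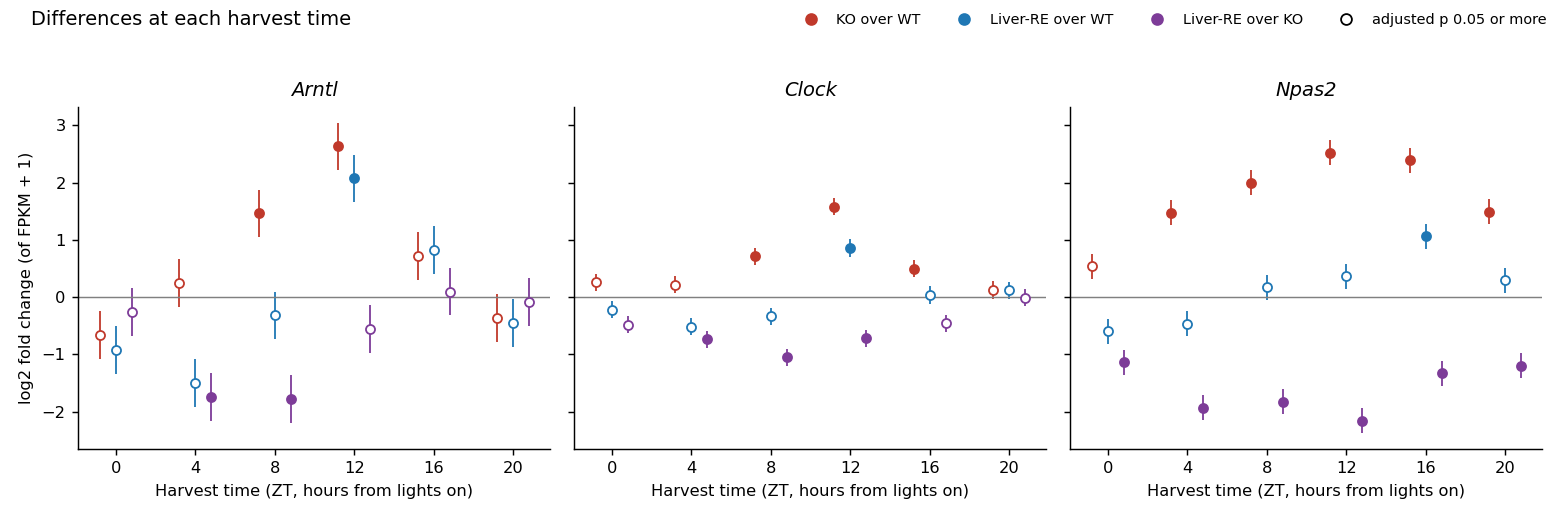
Log2 fold change of FPKM + 1 (vertical axis) at each harvest time in hours from lights on, for KO over WT (red), Liver-RE over WT (blue) and Liver-RE over KO (purple), with SE bars from the fit and filled points where the adjusted p was under 0.05. For Npas2 the KO over WT differences reach 2.53 at ZT12, and all 6 Liver-RE over KO points are filled.

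The partners were set side by side, taking the values as FPKM scaled by gene length. The lengths that the authors used are not given, so the size of each ratio between genes rests on them. The comparison of a ratio between genotypes does not. Npas2 stood at 38.2 ± 9.65% of the Clock level in KO, 10.5 ± 6.12% in Liver-RE and 7.66 ± 7.89% in WT (SD, n = 18 each). The KO livers ranged from 18 to 52.2%, the Liver-RE livers from 3.03 to 23.3% and the WT livers from 0.381 to 26.1%. The percentage depended on the hour in Liver-RE, with 4.93 ± 2.09% at ZT12 and 17.4 ± 8.37% at ZT16 (SD, n = 3). WT livers had 21.1 ± 4.89% at ZT0, the highest, against 0.962 ± 0.844% at ZT16, the lowest.

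Of the RNA of both partners together, Npas2 made up 27.3 ± 5.18% in KO, 9.21 ± 4.80% in Liver-RE and 6.67 ± 6.43% in WT (SD, n = 18 each). Arntl relative to the sum of Clock and Npas2 was 0.486 ± 0.0726 in KO, 0.582 ± 0.334 in Liver-RE and 0.609 ± 0.357 in WT. This ratio was steady in KO, while in Liver-RE it was 0.238 ± 0.0474 at ZT4 and 1.08 ± 0.127 at ZT16 (SD, n = 3), and in WT 0.121 ± 0.0204 at ZT12 and 0.971 ± 0.201 at ZT20. Ratios of RNA levels do not give ratios of proteins, and no test was made on them.

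**Figure D4:**
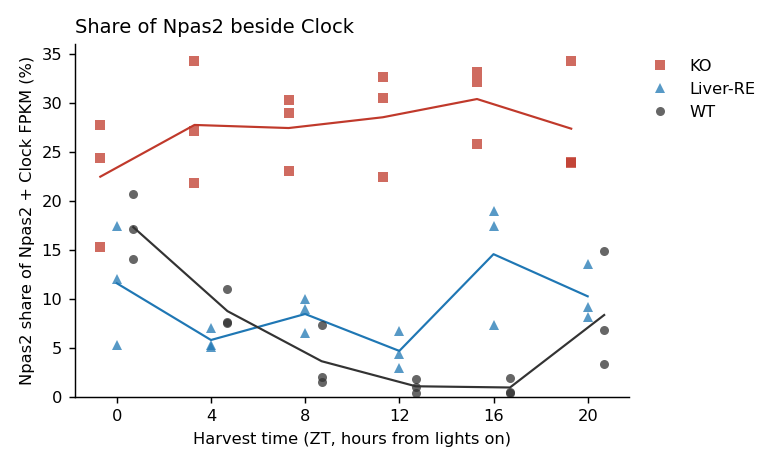
Share of Npas2 in the summed FPKM of Npas2 and Clock, in percent (vertical axis), against harvest time in hours from lights on, for KO (red squares), Liver-RE (blue triangles) and WT (black circles); points are single livers and lines join the means of 3. KO livers average 27.3%, Liver-RE livers 9.21% and WT livers 6.67%.

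The nuclear receptors that act on the members' ROREs came next. Of 5 listed, 4 were tested, and none was rhythmic in KO, 3 in Liver-RE and 3 in WT, where 0%, 3.82% and 23.5% of all genes were. Nr1d1, encoding REV-ERBα, had a mean level lower in KO than in WT by -1.44 ± 0.22 log2 (SE; adjusted p = 9.26e-07) and Nr1d2, encoding REV-ERBβ, by -2.06 ± 0.17 (6.91e-14). Rora, encoding the activator RORα, showed a difference of 0.02 ± 0.062 (adjusted p = 0.802). The list median was -0.71, against 0.02 over all genes. Nr1d1 peaked at ZT2.18 in Liver-RE and ZT7.25 in WT, and Nr1d2 at ZT5.83 in Liver-RE and ZT10.7 in WT. These peak times are given without SE or a check by leaving out libraries. Nr1d1 itself stood apart in Liver-RE replicate 1 at ZT20 and replicate 3 at ZT8. In WT replicate 2 at ZT8 it was at 0.292 FPKM, against 17.7 and 16.5 FPKM in the others.

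Other genes that REV-ERB and ROR are known to act on were all higher in KO than in WT, 5 of 5 tested, against 16.5% of all genes. Among them were Elovl3, a fatty acid elongase, at 3.36 log2 (adjusted p = 5.09e-11), Cry1, a repressor of the activators, at 1.31 (2.79e-11), E2f8, a cell cycle repressor, at 0.69 (4.36e-05), and Nfil3, a repressor of D-box genes, at 0.34 (0.0394). All 5 were lower in Liver-RE than in KO, against 26.7% of all genes. None of the 5 passed in mean level between Liver-RE and WT, against 7.06% of all genes. In rhythm, 2 of the 5 differed between Liver-RE and WT, against 3.51% of all genes.

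Of the E-box targets and the feedback arm, genes that the activators drive, 15 of 16 were tested. They were rhythmic in 0 cases in KO, 11 in Liver-RE and 14 in WT, against 0%, 3.82% and 23.5% of all genes. Averaged over the day, 2 were higher and 10 lower in KO than in WT, with a median of -0.40. The higher ones were the cryptochrome genes Cry1 and Cry2, with Cry2 at 0.35 (adjusted p = 0.000122). Of all genes 16.5% were called higher and 13.5% lower in KO. By the p-value of the rhythm difference between KO and WT, Tef, a D-box activator, led with a difference of 2.51 log2 (adjusted p = 4.33e-06), followed by Nampt, an enzyme of NAD synthesis, with 1.88 (9.77e-06), Per2, a repressor of the activators, with 2.41 (8.78e-05), and Wee1, a cell cycle kinase, with 1.96 (9.80e-05).

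The other bHLH-PAS genes, are relatives of the members. Of 16 listed, 7 were tested, and 0 were rhythmic in KO, 1 in Liver-RE and 1 in WT, against 0%, 3.82% and 23.5% of all genes. In mean level between KO and WT, 1 was higher and 2 lower, with a median of -0.09; with so few genes tested these counts lie near the shares of 16.5% and 13.5% over all genes. Hif1a, the oxygen-sensing factor, was lower in KO by -0.14 (adjusted p = 0.0348) and differed from WT in rhythm by 0.55 log2 (0.0362). Ncoa1, Ncoa2 and Ncoa3, coactivators, did not pass in either test, with mean differences of -0.02, -0.11 and -0.09.

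Coregulators of the activators and of REV-ERB, 12 of 12 tested, were rhythmic in 0 cases in KO, 0 in Liver-RE and 2 in WT, and 2 were lower in KO than in WT and none higher. The shares over all genes were 23.5% rhythmic in WT and 13.5% lower in KO, near those of this list. Hdac3, the deacetylase that REV-ERB recruits, had a mean difference of 0.04 (adjusted p = 0.516). Tbl1xr1, a part of the same corepressor complex, differed in rhythm between KO and WT by 0.73 log2 (adjusted p = 0.0475). Kat2b, an acetyltransferase, was lower in KO by -0.19 (adjusted p = 0.0217), and Tbl1x showed a difference of less than 0.01 (0.989). The lists hold genes chosen with earlier results of these data known.

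Over the 18 group means of log2(FPKM + 1), the members were compared with 10031 genes as a description; the groups share genotypes and hours. Arntl and Clock had a Pearson r of 0.876 (Spearman rho 0.688), Clock and Npas2 0.814 (0.870), and Arntl and Npas2 0.658 (0.703). Among all genes Npas2 ranked 110 in likeness to Clock, and Clock ranked 19 in likeness to Arntl. The members were thus not each other's closest matches.

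The genes most like Arntl were Lrfn3 (r = 0.954, rho = 0.843), St5 (0.953, 0.895), Cyp4f17 (0.935, 0.835), Fpgs (0.922, 0.806) and Leo1 (0.914, 0.765). The most opposite were Dbp (-0.957, -0.827), an output of the clock, Slc5a6 (-0.944, -0.839), a vitamin transporter, and Dennd5b (-0.922, -0.750). St5 had its highest group mean at 11.5 FPKM in KO, 12.1 FPKM in Liver-RE and 11.6 FPKM in WT, and its lowest at 8.89 FPKM in KO, 3.75 FPKM in Liver-RE and 2.11 FPKM in WT. In Liver-RE its lowest group was ZT8 and in WT ZT12, the hours at which Arntl was lowest too.

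Closest to Clock were Insig2 (r = 0.978, rho = 0.940), a brake on sterol synthesis, Trim2 (0.958, 0.899), Clpx (0.949, 0.899), a mitochondrial chaperone of protein breakdown, Mad2l2 (0.939, 0.880) and Leprotl1 (0.936, 0.903). The most opposite were Bach1 (-0.937, -0.920), a heme-binding repressor, Per3 (-0.926, -0.897) and Arhgap21 (-0.921, -0.835). Insig2 ran between 127.5 and 74.5 FPKM in KO, 100.7 and 23.8 FPKM in Liver-RE, and 104.6 and 14.1 FPKM in WT, as the highest and lowest group means.

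Closest to Npas2 were Smo (r = 0.960, rho = 0.903), the Hedgehog signal transducer, Pdgfc (0.960, 0.915), a growth factor, Dtx4 (0.957, 0.953), Top1mt (0.957, 0.940), the mitochondrial topoisomerase, and Ndrg1 (0.948, 0.895). The most opposite were Lrp4 (-0.958, -0.928), Cyp2a5 (-0.953, -0.917) and Peli2 (-0.946, -0.864). Ndrg1 was at 35.3 FPKM in its highest KO group, 7.68 FPKM in its highest Liver-RE group and 17.1 FPKM in its highest WT group, and Cyp2a5 at 68.5 FPKM in KO, 446.5 FPKM in Liver-RE and 626.4 FPKM in WT. Smo, Pdgfc, Dtx4, Top1mt and Ndrg1, like Npas2, had a higher lowest group mean in KO than the highest one in WT or Liver-RE.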

How the data were processed

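A single table was analysed, with a value per gene and library in 54 livers. The authors deposited it with no unit named; by its numbers it is FPKM, scaled by the authors to gene length and depth, though TPM with genes removed would look alike. The submitters' processing notes list CASAVA 1.8.2 and mm10; the sources used here do not name the aligner, the counting or the annotation. Per the labels' protocols, stranded libraries came from total RNA depleted of ribosomal RNA and were read single-end. With no counts in the table, neither a count model nor intervals for counting error could be used.

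All genes averaging 0.5 FPKM or more, 11759 in number and with all 3 members among them, entered limma 3.58.1 under R 4.3.3 as log2(FPKM + 1), with trended empirical Bayes; the other 6320 did not. In the first model each genotype had a mean plus cosine and sine terms of 24 h; in the second each genotype and harvest time had its own mean. Both shared one spread per gene among the 54 libraries. Benjamini-Hochberg adjustment ran over all genes, separately for each test, at a threshold of 0.05. SD in FPKM is over livers; whether the mice of a group were littermates is not given in the labels used here.

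Depth was read from low values of 2299 genes with a single transcript. Promoter windows are RefSeq's on GRCm38.p6; all 3 members matched by symbol. Genes named for likeness are the 5 highest and 3 lowest Pearson r over 18 group means among genes averaging 1 FPKM or more; from the lists, those of up to 6 genes are named whole and others by their 4 smallest p-values for the rhythm difference of KO from WT. A gene that this rule takes is not reported here. The members, the gene lists and the tests were chosen with earlier results of these data known. No libraries were identical; the lowest pairwise r of log2 values was 0.932. The fits were tested on simulated data. Tables and figures were made in Python 3.11.15 (numpy 2.4.6, pandas 2.3.3, matplotlib 3.10.9).

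Other settings tried were a block for the replicate number, 0.1 as pseudocount, all genes unfiltered, quantile normalization, rescaling without the 20 highest genes, robust empirical Bayes, fits of the genotypes concerned alone, a mean per harvest time in place of the cosine, and each library left out in turn; leaving out 2, 3 or 5 libraries together was chosen after seeing the data.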

Additional observations from a re-analysis of the deposited data

Results flagged for a closer look

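The daily rhythm of each member differed between genotypes in the direct test of that difference in limma. Between KO and WT the adjusted p was 0.000142 for Arntl, 0.000759 for Clock and 2.77e-05 for Npas2. Between Liver-RE and WT it was 0.000143 for Arntl, 0.0115 for Clock and 0.000861 for Npas2. The sizes of these differences and the peak times stand with the report's account of the rhythms.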

How the results depend on the processing

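Over all settings, the rhythms of the 3 members in Liver-RE and WT, their absence from the calls in KO, their rhythm differences between KO and WT and between Liver-RE and WT, and their mean level differences of KO from WT and of Liver-RE from KO kept their direction and their side of the threshold. With the replicate block no call among these changed (Arntl rhythm difference of Liver-RE from KO 2.05); Clock at ZT0 and ZT16 passed between Liver-RE and KO, with adjusted p of 0.0435 and 0.0340. Same-numbered livers had a median r of 0.031 in their deviations from the group means, and other pairs -0.021. An r over 0.1 was found in 160 of 459 same-numbered pairs and 222 of 918 other pairs. Whether the replicate number marks a shared batch was not tested.

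For the mean level of Liver-RE against WT, Arntl was 0.10 with the pseudocount of 0.1, 0.16 without the 2 libraries that stood apart, 0.23 without 3, 0.27 without 5, and -0.12 to 0.10 leaving out single livers; Clock was 0.037 with quantile normalization, 0.030 without the 20 highest genes, 0.034 without the 2 or 3 libraries, 0.050 without 5, and -0.044 to 0.037 leaving out single livers; Npas2 was 0.67 with the pseudocount of 0.1.

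For the rhythm difference of Liver-RE from KO, Arntl passed with 2.18 (quantile), 2.19 (20 highest out), 2.05 (genotypes concerned, adjusted p = 0.0107), 2.26 (2 libraries out), 2.34 (3 out) and 2.27 (5 out), and ranged from 1.93 to 2.26 leaving out single livers; Clock passed with 0.95 (quantile), 0.97 (20 highest out) and 0.85 (2 out), and ranged from 0.81 to 0.95; Npas2 passed with 1.15 (3 out).

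Of all genes, those rhythmic in KO numbered 2 with no filter and with quantile normalization, 6 with a mean per harvest time, 1 without the 2, 3 or 5 libraries, and 0 to 3 leaving out single livers. Those rhythmic in Liver-RE numbered 729 with quantile normalization, 191 with the genotypes concerned, and 249 to 645 leaving out single livers. Rhythm differences of KO from WT numbered 538 with a mean per harvest time and 568 to 1133 leaving out single livers; of Liver-RE from WT, 260 to 580; of Liver-RE from KO, 7 with no filter, 59 with quantile normalization, 52 without the 20 highest genes, 49 with the genotypes concerned, 4 with a mean per harvest time, 60, 74 and 77 without the 2, 3 or 5 libraries, and 7 to 65 leaving out single livers. Level differences of Liver-RE from WT numbered 513 with quantile normalization and 477 without the 20 highest genes.

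Single-hour values that turned sign had not passed. Liver-RE against WT at ZT8, Arntl was 0.67 without the 2, 3 or 5 libraries (single livers -0.85 to 0.67). Liver-RE against KO, Arntl was 0.33 at ZT0 without the 3 or 5 (-0.66 to 0.33) and 0.21 at ZT20 without the 2, 3 or 5 (-0.30 to 0.21), and Clock at ZT20 was 0.071 (quantile), 0.044 (20 highest out) and 0.0055 (2, 3 or 5 out; single livers -0.026 to 0.020). Within KO at ZT20 against ZT8, Clock was -0.046 (quantile) and -0.0036 (20 highest out; -0.044 to 0.075), and Npas2 -0.044 and -0.013 (-0.16 to 0.13). Leaving out single livers, Clock in KO at ZT12 against ZT0 ranged from -0.25 to 0.032, Npas2 in KO at ZT16 against ZT4 from -0.039 to 0.24, and Arntl in Liver-RE at ZT12 against ZT0 from -0.74 to 0.26. The cause of these changes was not tested. With 3 livers per group, and with Npas2 near 0 in WT at ZT12 and ZT16, small differences at one hour are beyond this design.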
